A study of Mus musculus with 12 samples.

Results

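A set of 41 marker genes of glia and microglia was followed here through sorted neurons of the mouse pontine nucleus, taken by gene symbol: 16 genes used to mark astrocytes and their radial glial precursors, 12 of the oligodendrocyte lineage and 13 of microglia and other macrophages of the brain. All 41 were found by symbol among the 23079 genes of the deposited count table. Of the 41, 34 had enough reads to be tested: 15 of 16 astrocyte, 10 of 12 oligodendrocyte lineage and 9 of 13 microglia genes. Gfap, Mag, Mobp, Tmem119, C1qa, Tyrobp and Pf4 were not tested, and Mobp and Pf4 had no read in any library.

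Astrocytes arise from radial glia, clear glutamate and potassium from around synapses, and take up glucose from vessels. Oligodendrocyte precursors spread through the hindbrain before birth and later wrap axons in myelin, so that genes of compact myelin come on after genes of the precursor state. Microglia are not made in the neural tube: they enter the brain from the yolk sac early in development, clear dying cells and tag material for removal with complement. Several genes of the astrocyte set are also read out in neurons or neuron precursors, among them Slc1a2, Ptprz1, Id4 and Fabp7.

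The RNA came from pontine nucleus neurons of CD-1 mouse embryos at E18.5, which had been genetically labelled, dissected, dissociated and sorted by fluorescence, and was amplified before sequencing. Math1tdTomato, the reference (n = 6), was labelled through Math1 (Atoh1), a rhombic lip gene. In Hoxa5tdTomato (n = 3) the label followed Hoxa5, which patterns the body axis and is not a gene of neurons alone, and Math1Hoxa5-IRES-GFP (n = 3), called the driven group here, carried a Hoxa5 allele whose columns name Cag and lsl, in the Math1 lineage. The column names split the references into 3 that name creErt2 and 3 that name tdT. Those of Hoxa5tdTomato name cre, and no label says whether the driver marks cells other than neurons. From these words and from depth, the Hoxa5tdTomato libraries and the creErt2 references were set together (9973484 to 13302076 counts per library), and so were the driven libraries and the tdT references (22355961 to 29820776). No name states this pairing, and depth and set cannot be told apart. Whether replicates came from separate embryos or litters is not given in the labels, so the p-values measure the spread between these libraries, which may be technical. In RNA of pooled cells, fewer cells of a type and less RNA per cell cannot be told apart.

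The label of neurons was checked on 8 neuron genes (among them Tubb3, Snap25 and Stmn2), all read in every library, whose CPM (counts scaled by library size with the TMM factors of edgeR) summed to 9989 to 10592 in Hoxa5tdTomato, 11464 to 13227 in the references and 10810 to 13871 in the driven group. All 3 Hoxa5tdTomato libraries lay below the other 9, and the part of this in the glial values was not tested. Hoxa5 itself was at 119 to 222 CPM in Hoxa5tdTomato and at 4.35 to 32.2 CPM in the references. In the driven group it was at 9.73, 16.8 and 82.0 CPM, so that replicates 1 and 2 lay within the range of the references and the group is known by its label alone. Driven replicate 3 stood apart. It had reads for 13074 genes, the fewest of the 12, and its log2(CPM + 1) values correlated across genes at 0.890 and 0.896 with the other driven libraries, against 0.946 to 0.967 for all other pairs of replicates. Hoxa5tdTomato also differed from the references in markers of vessels. The 12 pericyte and mural genes summed to 114 to 241 CPM there and to 3.42 to 27.2 CPM in the references, and the 14 endothelial genes to 133 to 252 against 3.57 to 37.8 CPM. In each Hoxa5tdTomato library 11 or 12 of the 12 mural genes and 13 or 14 of the 14 endothelial genes had a read. The part of vascular RNA in the values below was not tested.

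**Figure D1:**
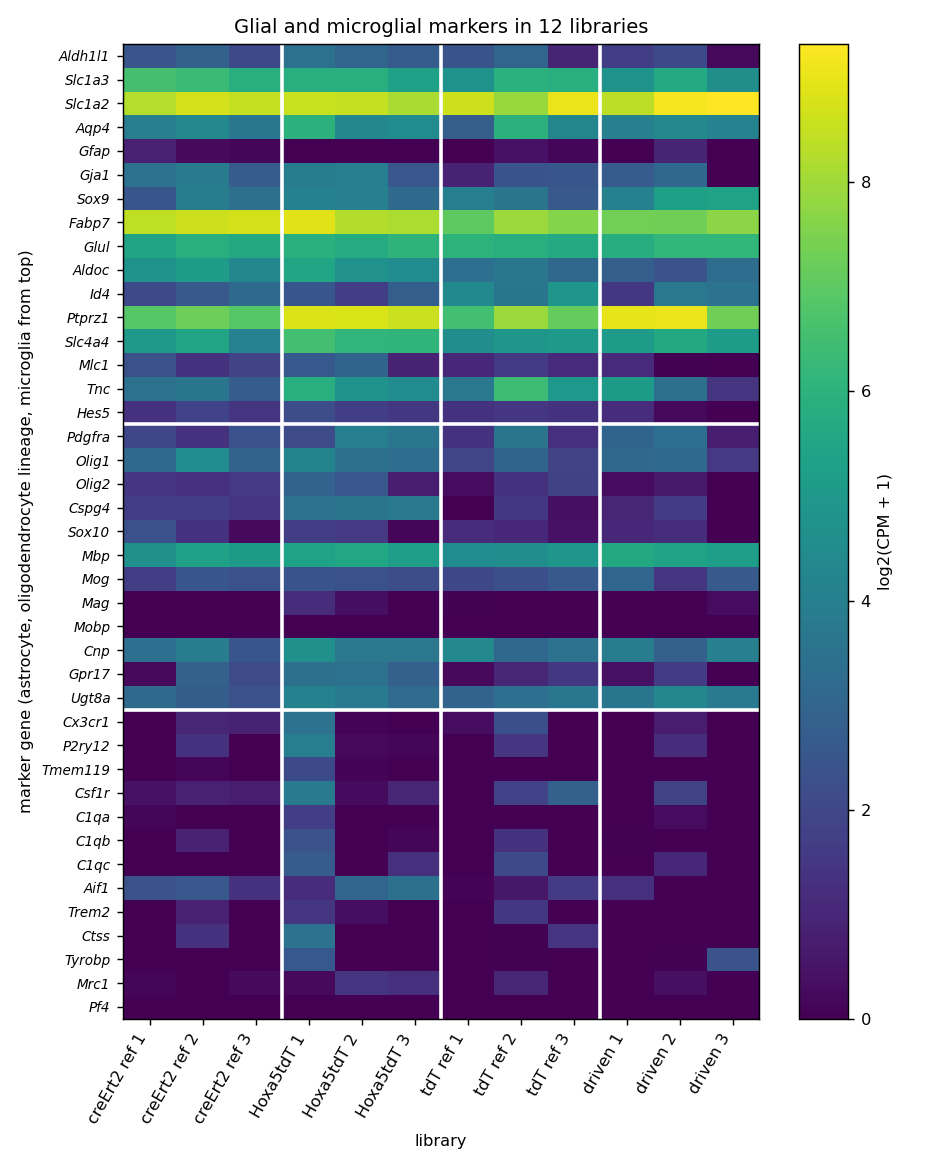
Level of each of the 41 markers (rows, log2 of CPM + 1, colour) in each of the 12 libraries (columns, in their 4 column-name groups separated by white lines). Slc1a2, Fabp7 and Ptprz1 are bright in all 12 libraries, while most microglia rows are bright in the first Hoxa5tdTomato library alone.

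Most of the signal of the set lay in 3 astrocyte genes. Summed over the class, astrocyte markers stood at 1120 ± 119 CPM in the creErt2 references, 1444 ± 256 in Hoxa5tdTomato, 984 ± 167 in the tdT references and 1319 ± 191 in the driven group (SD, n = 3 each). Oligodendrocyte lineage markers were more than 10 times lower, at 75.8 ± 20.1, 122.6 ± 19.7, 63.7 ± 4.73 and 88.8 ± 14.4 CPM, and microglia markers lower again, at 6.30 ± 4.28, 32.3 ± 35.8, 8.89 ± 8.09 and 4.03 ± 2.47 CPM in the same order. The SD of the microglia sum in Hoxa5tdTomato exceeded its mean. Of the 41 genes, 18 had a read in every library, 12 of them astrocyte and 6 oligodendrocyte lineage genes. Between 27 and 38 members had a read in 11 libraries, and 20 did in driven replicate 3.

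**Figure D2:**
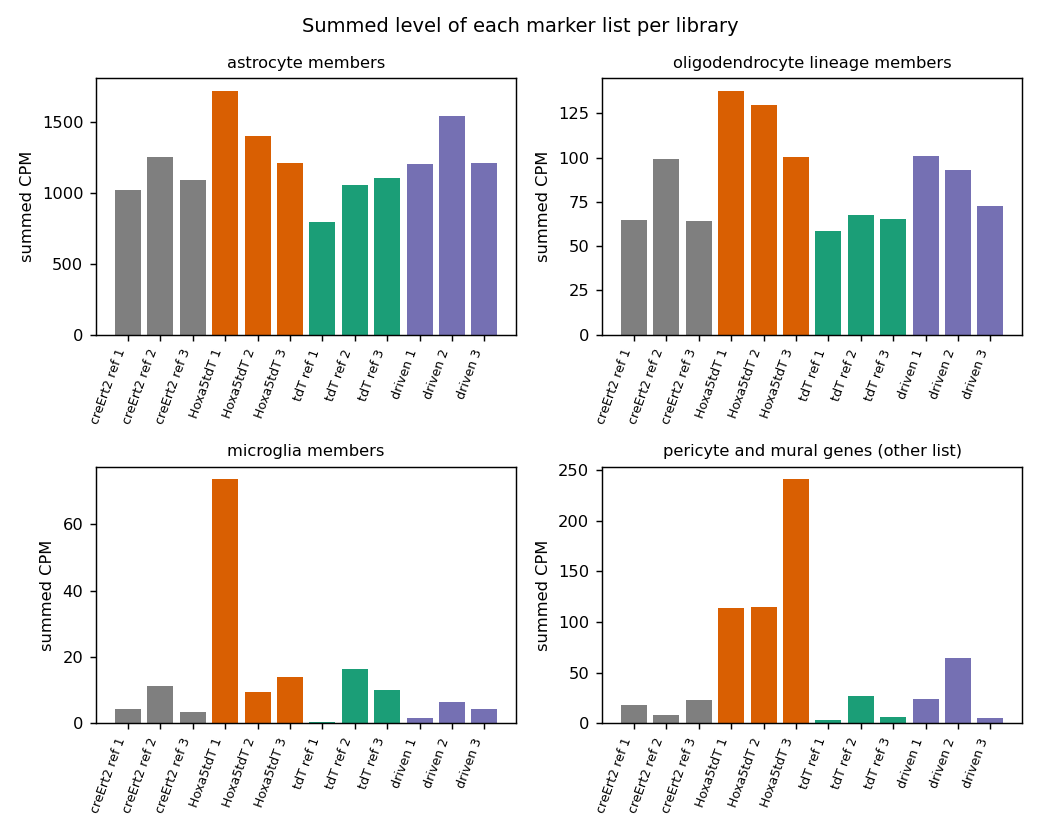
Summed CPM (vertical axis) of the 3 marker classes and of the pericyte and mural genes, 1 bar per library in 4 colours for the column-name groups. Astrocyte sums lie between 793 and 1720 CPM, whereas the microglia panel has 1 tall bar, 73.6 CPM in Hoxa5tdTomato replicate 1.

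In all, 7 comparisons were made, each fitted with edgeR's quasi-likelihood test on all 14732 tested genes with Benjamini-Hochberg adjusted p-values held against 0.05. Of the 34 tested members, 2 rose in Hoxa5tdTomato against all 6 references, where 1.73% of all genes were called, and 1 rose in the driven group, where 1.84% were called. Between Hoxa5tdTomato and the driven group 1 member was higher, beside 3.35% of all genes. No member fell in any of the 3. These fits pool both kinds of reference. With the creErt2 and tdT references as groups of their own and the mean of both as the baseline, an alternative chosen after seeing the data, the same 2 members rose in Hoxa5tdTomato, and Ptprz1 and Sox9 rose in the driven group. That fit called 4.19% and 3.63% of all genes. Against the references of the own set, 0 members were called in Hoxa5tdTomato (0.557% of all genes) and 0 in the driven group (0.862%). At an unadjusted p under 0.05 there were 5 and 4 members, beside 1312 and 2022 of the 14732 tested genes. DESeq2 called 2 and 0 members, beside 1.85% and 3.89% of all genes. Between the creErt2 and tdT references 1 member was called, beside 1.34% of all genes. The difference between the changes of both sets gave 0 called members, as it gave 0% of all genes. For it 4 members had an unadjusted p under 0.05, beside 1181 of the 14732 tested genes, and DESeq2 called 0, beside 0.369% of all genes. All 5 calls fell on 4 astrocyte genes: Ptprz1, Slc4a4, Aldoc and Fabp7. The comparisons share the references, so their calls are not independent of each other.

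Ptprz1 encodes a receptor tyrosine phosphatase of radial glia, astrocytes and oligodendrocyte precursors that binds pleiotrophin and tenascins (chromosome 6, 22875315 to 23052916, RefSeq GRCm38.p6). It stood at 117, 152 and 115 CPM in the creErt2 references, at 451, 443 and 379 in Hoxa5tdTomato, at 89.5, 239 and 136 in the tdT references and at 508, 523 and 158 in the driven group. All 3 Hoxa5tdTomato libraries lay above all 6 references. In the driven group replicates 1 and 2 were the highest of the 12 libraries, and replicate 3 lay below tdT reference 2. Hoxa5 itself stood at 9.73 and 16.8 CPM in driven replicates 1 and 2, within the range of the references. It was at 82.0 CPM in replicate 3. Whether Ptprz1 follows Hoxa5 across these libraries was not tested. Against all references the log2 fold change of Ptprz1 was 1.58 ± 0.30 (standard error, edgeR adjusted p = 0.0141) in Hoxa5tdTomato and 1.49 ± 0.30 (adjusted p = 0.0143) in the driven group. Within the sets it was 1.73 ± 0.38 (adjusted p = 0.0540) and 1.36 ± 0.37 (adjusted p = 0.114), neither past the threshold. The first passed in 10 of 20 alternatives. Without driven replicate 3 both passed, at 1.73 (adjusted p = 0.000606) and 1.74 (adjusted p = 0.00104). In that fit the calls over all genes within the sets also rose, from 82 to 364 and from 127 to 365. Leaving out any 1 of the 3 Hoxa5tdTomato libraries ended the first call, with adjusted p values of 0.0590 to 0.0982 and log2 fold changes of 1.54 to 1.66. In those fits the calls over all genes dropped from 255 to between 35 and 52. Without driven replicate 2 the second change was 1.24 (adjusted p = 0.0622). Between Hoxa5tdTomato and the driven group the difference was 0.10 ± 0.36 (adjusted p = 0.909), and -0.28 without driven replicate 3.

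Slc4a4 encodes a sodium bicarbonate cotransporter through which astrocytes set pH (chromosome 5, 88793858 to 89239656). Its levels were 31.5, 43.6 and 16.5 CPM in the creErt2 references, 92.4, 69.8 and 66.97 in Hoxa5tdTomato, 23.04, 29.7 and 31.8 in the tdT references and 34.5, 49.2 and 33.9 in the driven group. Hoxa5tdTomato lay above all other 9 libraries. The log2 fold change against all references was 1.38 ± 0.27 (edgeR adjusted p = 0.0141) in Hoxa5tdTomato and 0.42 ± 0.27 (adjusted p = 0.464) in the driven group. Within the sets these were 1.32 ± 0.33 (adjusted p = 0.107) and 0.48 ± 0.32 (adjusted p = 0.558), and the difference between them was 0.84 ± 0.45 (adjusted p = 0.672). Without Hoxa5tdTomato replicate 1, 2 or 3 the call in Hoxa5tdTomato was lost, at adjusted p values of 0.150, 0.0763 and 0.0599. Without driven replicate 3 the Hoxa5tdTomato change within the set passed (adjusted p = 0.0242), where the calls over all genes rose from 82 to 364. Hoxa5tdTomato against the driven group gave 0.96 ± 0.32 (adjusted p = 0.0902).

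Aldoc encodes a glycolytic aldolase typical of astrocytes (chromosome 11, 78323073 to 78327781). It was at 26.9, 33.8 and 19.2 CPM in the creErt2 references, 43.8, 25.5 and 21.8 in Hoxa5tdTomato, 9.66, 11.7 and 7.802 in the tdT references and 6.01, 4.27 and 9.03 in the driven group. All 6 libraries of the shallower set lay above all 6 of the deeper set. Hoxa5tdTomato against the driven group gave 2.24 ± 0.55 (edgeR adjusted p = 0.0428), while the references of the same sets differed by 1.45 ± 0.41 (adjusted p = 0.108), and the difference left between the changes within the sets was 0.78 ± 0.58 (adjusted p = 0.769). The call was lost without creErt2 reference 3, Hoxa5tdTomato replicate 1, 2 or 3, tdT reference 2 or driven replicate 1 or 2 (adjusted p values of 0.0504 to 0.160), and in a fit of those 2 groups only (adjusted p = 0.0695).

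Fabp7 encodes the fatty acid binding protein of radial glia (chromosome 10, 57784923 to 57788450) and was the member of highest level per length, at 361 RPKM (CPM per kilobase of gene length), in the 99.8th percentile of the tested genes. It stood at 340.5, 390.0 and 418 CPM in the creErt2 references, 476, 300.1 and 291 in Hoxa5tdTomato, 129, 239 and 193 in the tdT references and 159.9, 157 and 208 in the driven group. Again the 6 libraries of the shallower set lay above the 6 of the deeper set. The references of both sets differed by 1.03 ± 0.23 (edgeR adjusted p = 0.0372), with the creErt2 references higher. Within the sets the changes were -0.11 ± 0.23 in Hoxa5tdTomato and -0.09 ± 0.23 in the driven group (adjusted p = 0.983 and 0.899). Leaving out any 1 creErt2 reference, tdT reference 1 or 3, or Hoxa5tdTomato replicate 2 or 3 ended the call between the references (adjusted p values of 0.0549 to 0.179), with changes of 0.82 to 1.11.

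**Figure D3:**
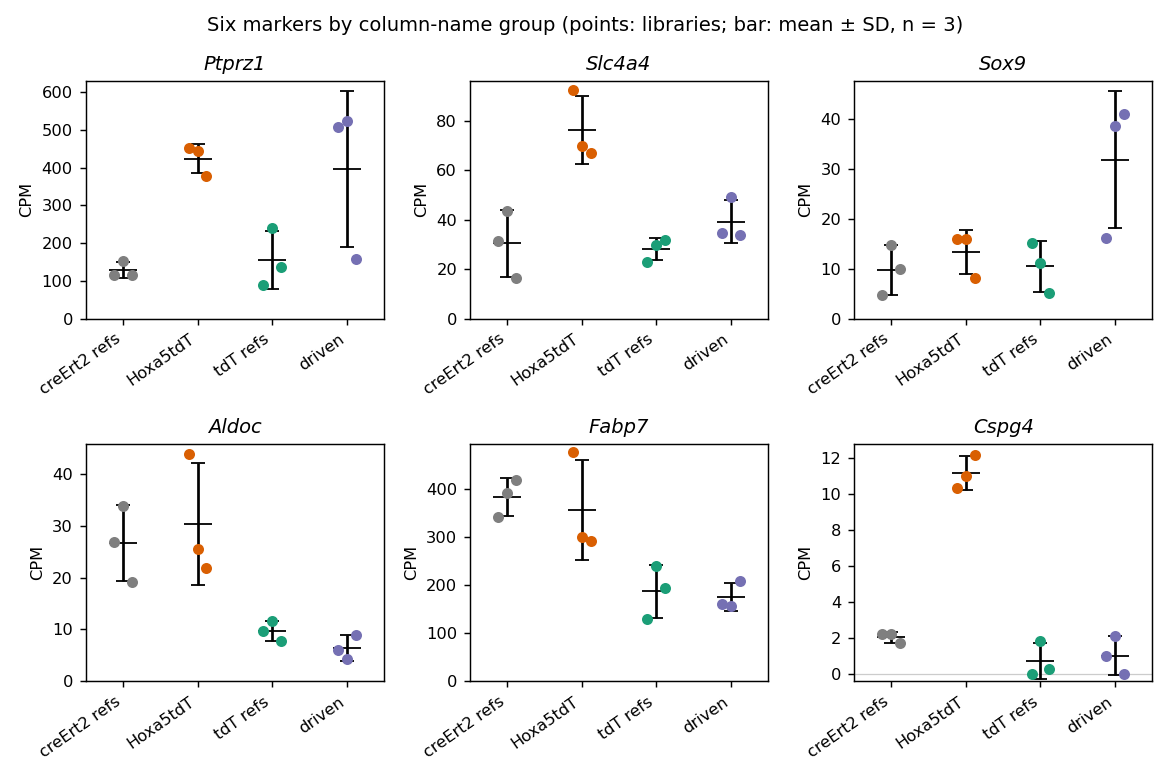
CPM (vertical axis, linear) of 6 markers in the 4 column-name groups, with 1 point per library and a bar at the mean ± SD (n = 3). Slc4a4 and Cspg4 are highest in all 3 Hoxa5tdTomato libraries, and Aldoc and Fabp7 split by set rather than by label.

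To show what lies upstream of the genes that carried these calls, 3 stretches before a RefSeq start site are given (GRCm38.p6, plus strand, 5′ to 3′), each ending before the first annotated exon base. Capitals mark the nuclear factor I half-site TTGGC, searched on both strands as TTGGC or GCCAA, a motif of factors that act in glial differentiation. The stretches lie at chr5:89027716-89027965 (Slc4a4, the second of its 2 start sites, inside the gene), chr11:78322823-78322967 (Aldoc, the first of 2 start sites) and chr10:57784673-57784880 (Fabp7).
Slc4a4: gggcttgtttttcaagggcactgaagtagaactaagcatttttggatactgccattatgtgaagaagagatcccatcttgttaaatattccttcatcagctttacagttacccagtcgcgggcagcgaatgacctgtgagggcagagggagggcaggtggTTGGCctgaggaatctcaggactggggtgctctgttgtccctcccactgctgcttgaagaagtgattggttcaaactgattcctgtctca
Aldoc: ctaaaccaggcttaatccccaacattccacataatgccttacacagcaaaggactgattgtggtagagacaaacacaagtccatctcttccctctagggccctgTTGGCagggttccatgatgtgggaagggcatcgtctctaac
Fabp7: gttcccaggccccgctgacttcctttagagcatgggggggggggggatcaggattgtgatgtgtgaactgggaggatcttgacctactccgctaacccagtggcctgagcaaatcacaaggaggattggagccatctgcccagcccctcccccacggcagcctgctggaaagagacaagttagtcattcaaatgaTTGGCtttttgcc

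These 3 stretches each held 1 half-site. The window before the second Aldoc start site held none, and that before the first Slc4a4 start site, which lies in an exon and is not printed, held 2. The motif was found in the 250 bases before the start site in 10 of 17 astrocyte promoters, 4 of 10 oligodendrocyte lineage and 6 of 9 microglia promoters, and in 41.5% of all 32851 promoters of the RefSeq table. The window of Ptprz1 held none. The SOX core ACAAAG (both strands) stood in 1 of 17, 4 of 10 and 2 of 9 against 16.5% of all. A promoter was matched for 31 of the 41 members, and a match to these letters is a description and not a bound site.

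The other astrocyte genes of high level did not pass. Slc1a2, the main glutamate transporter of mature astrocytes, made up 33.1% of the summed astrocyte CPM, next to 22.7% for Ptprz1 and 22.6% for Fabp7. Slc1a2 stood at 312, 416 and 366 CPM in the creErt2 references, 367, 359 and 278 in Hoxa5tdTomato, 389.8, 236 and 535 in the tdT references and 338, 589.9 and 639 in the driven group. The groups overlapped throughout, and the largest of its changes against all references was 0.47 ± 0.22 in the driven group (edgeR adjusted p = 0.293). Slc1a3, the glutamate transporter of radial glia, was at 93.2, 80.9 and 57.3, 56.2, 56.3 and 39.2, 26.5, 60.96 and 57.3 and 26.7, 50.9 and 23.1 CPM in the same order. All 3 Hoxa5tdTomato libraries lay below all 3 creErt2 references, by a narrow margin (56.3 against 57.3 CPM at the nearest), and no comparison called it. Per length, after Fabp7, Slc1a2 (33.3 RPKM) and Ptprz1 (27.6 RPKM) came Glul, the glutamine synthetase, at 20.9 RPKM and Aldoc at 10.5 RPKM.

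The defining markers of mature astrocytes were low. Gfap, the intermediate filament of astrocytes, had 43 reads over all libraries (0.799, 0.178 and 0.0906 CPM in the creErt2 references, 0, 0 and 0 in Hoxa5tdTomato, 0, 0.362 and 0.0857 in the tdT references, 0, 0.944 and 0 in the driven group). With 0 reads in Hoxa5tdTomato and 22 in the references, it was at least 2.54-fold lower in Hoxa5tdTomato (1.68-fold without creErt2 reference 1), set against a floor of 3 counts over the group, which covers counting error only, the amplified reads having no molecular identifiers. Aldh1l1, a folate enzyme used to mark the whole astrocyte lineage, was at 4.53, 6.22 and 3.17 CPM, 10.2, 7.205 and 5.58, 4.42, 7.29 and 0.943 and 2.28, 3.28 and 0.1505 in the same order of groups. Hoxa5tdTomato lay above the driven group and overlapped both sets of references. Aqp4, the water channel of astrocyte endfeet, was at 15.01, 19.7 and 11.7, 62.97, 19.2 and 21.8, 5.99, 62.5 and 18.6 and 15.6, 19.7 and 16.5 CPM. Hoxa5tdTomato replicate 1 and tdT reference 2 were more than 2 times higher than every other library, and they were also the 2 libraries with reads of the most microglia genes.

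Sox9, the transcription factor that starts gliogenesis, was highest in the driven group. It stood at 4.71, 14.7 and 9.96 CPM in the creErt2 references, 15.9, 15.9 and 8.23 in Hoxa5tdTomato, 15.2, 11.1 and 5.06 in the tdT references and 16.1, 38.5 and 40.8 in the driven group. The lowest driven library (16.1 CPM) lay just above the highest reference (15.2 CPM), and driven replicates 2 and 3 were apart from all others. The log2 fold change of 1.65 ± 0.43 against all references missed the threshold (edgeR adjusted p = 0.0573) and passed with DESeq2 (adjusted p = 0.00831), against the mean of both reference sets (adjusted p = 0.0482), with no filter, on thinned counts and without driven replicate 1. In that order these alternatives called 5.69%, 3.63%, 1.76%, 2.09% and 3.84% of all genes, against 1.84% in the main fit. Within the set the Sox9 change was 1.60 ± 0.54 (edgeR adjusted p = 0.198). Hes5, a Notch target of radial glia, was lowest in the driven group: 1.26, 0.135 and 0 CPM in the driven group lay below all 6 references (1.51 to 2.67 CPM), with a change of -1.93 ± 1.14 (adjusted p = 0.410). It shares 31.8% of its exon bases with an overlapping gene on the opposite strand, and the strand setting of the counts is not given in the sources used here.

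Mlc1, a membrane protein of astrocyte endfeet, had the largest fitted change of the class in 2 comparisons: 3.996, 1.599 and 2.81 CPM in the creErt2 references, 4.98, 7.07 and 0.915 in Hoxa5tdTomato, 1.11, 1.99 and 1.200 in the tdT references and 1.16, 0.04497 and 0 in the driven group. The change was -2.36 ± 1.22 in the driven group against all references (edgeR adjusted p = 0.344) and 3.40 ± 1.37 in Hoxa5tdTomato against it (adjusted p = 0.152). Without driven replicate 1, the only driven library above 0.05 CPM, they were -6.11 (adjusted p = 0.0400) and 7.14 (adjusted p = 0.0211). That fit called 3.84% and 7.73% of all genes, against 1.84% and 3.35% in the main fit. Tnc, the matrix protein tenascin C, stood at 10.6, 11.5 and 5.61 CPM, 57.01, 26.2 and 21.9, 12.4, 82.5 and 30.2 and 33.1, 9.98 and 1.66 in the same order. All 3 creErt2 references lay below all 3 tdT references and all 3 Hoxa5tdTomato libraries, and the change between the references was -2.18 ± 0.82 (adjusted p = 0.252), which passed without driven replicate 3 (adjusted p = 0.0367). In that fit the calls over all genes between the references rose from 197 to 784. Within the sets the Tnc change was 1.92 ± 0.81 in Hoxa5tdTomato (adjusted p = 0.475), with a difference between the sets' changes of 3.41 ± 1.13 (adjusted p = 0.556). Gja1, the gap junction protein connexin 43, ranged from 0 to 15.1 CPM over the 12 libraries, Id4, an inhibitor of helix-loop-helix factors, from 1.86 to 28.7 CPM, and Glul from 42.01 to 71.6 CPM, and none of these 3 was called in any comparison. Over the 15 tested astrocyte genes, the fitted change against all references was above 0 for 12 in Hoxa5tdTomato (median 0.54) and for 5 in the driven group (median -0.62), beside medians of 0.00 and -0.00 over all genes.

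**Figure D4:**
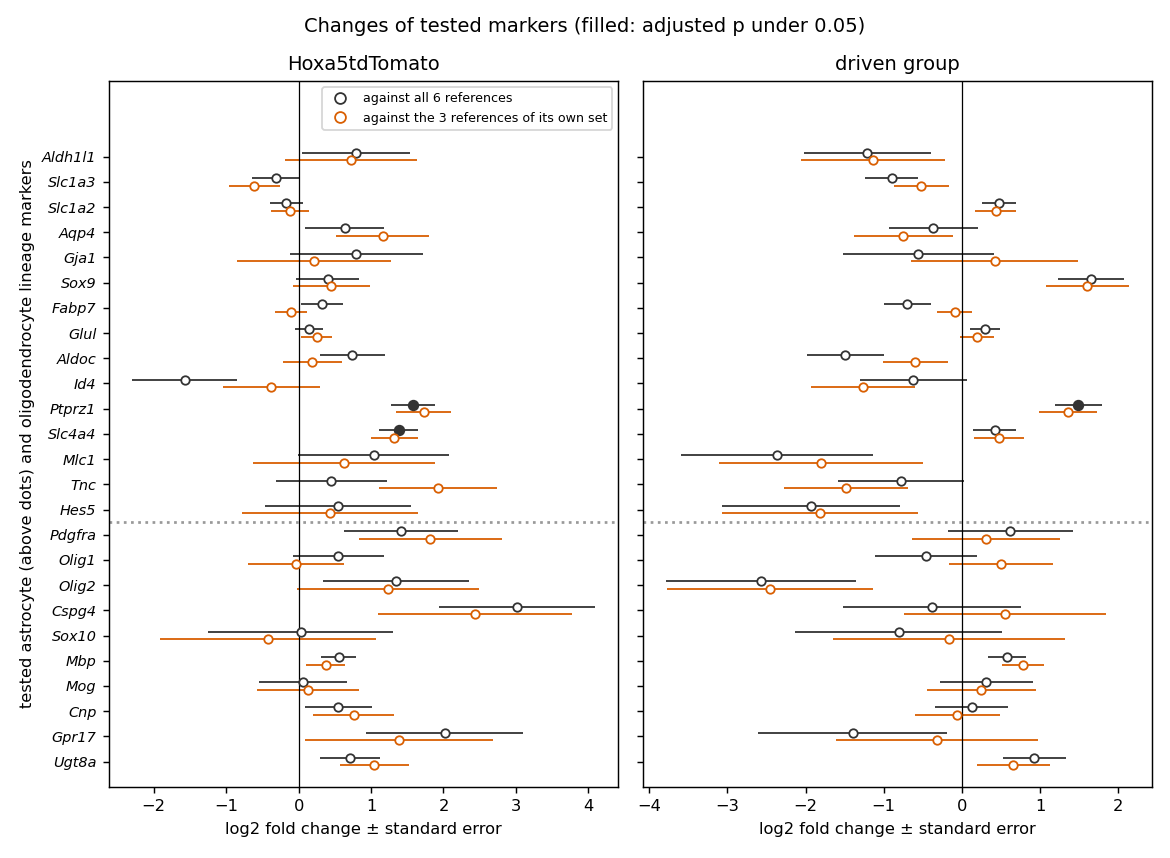
Log2 fold change ± standard error (horizontal axis) of the 25 tested astrocyte and oligodendrocyte lineage markers in Hoxa5tdTomato (left) and the driven group (right), against all 6 references (black) and against the 3 references of the own set (orange). The 3 filled points passed an adjusted p of 0.05: Ptprz1 and Slc4a4 on the left and Ptprz1 on the right.

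In the oligodendrocyte lineage 0 of 10 tested genes were called in any of the 7 comparisons. At an unadjusted p under 0.05 there were 2 against all references in Hoxa5tdTomato and 3 in the driven group, beside 2148 and 2456 of the 14732 tested genes. DESeq2 called 1, Olig2, between Hoxa5tdTomato and the driven group, where it called 10.2% of all genes. Cspg4, the NG2 proteoglycan that precursors and pericytes both carry, was at 2.22, 2.22 and 1.72 CPM in the creErt2 references, 10.3, 10.98 and 12.2 in Hoxa5tdTomato, 0, 1.86 and 0.3001 in the tdT references and 1.02, 2.11 and 0 in the driven group. Hoxa5tdTomato lay at more than 4 times every other library. The log2 fold change of 3.02 ± 1.08 against all references missed the threshold (edgeR adjusted p = 0.179) and passed without driven replicate 3 (3.03, adjusted p = 0.0444) and in a fit of these groups only (adjusted p = 0.0446). These 2 fits called 4.86% and 5.27% of all genes, against 1.73% in the main fit. Within the set the change was 2.44 ± 1.34 (adjusted p = 0.658), and 2.46 in a fit of those groups only (adjusted p = 0.00372). That fit called 7.19% of all genes, against 0.557% in the main fit. The sum of the pericyte and mural genes in Hoxa5tdTomato was 9.67 times that in the creErt2 references. Of these, 3 of 10 tested rose against all references, beside 1.73% of all genes. Which cells the Cspg4 reads came from was not tested.

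For the other genes of precursors and early lineage cells, the range in Hoxa5tdTomato overlapped that in the references. For Gpr17 this overlap was narrow (6.22 against 6.31 CPM). Pdgfra, the growth factor receptor of precursors, stood at 2.93, 1.51 and 4.07 CPM in the creErt2 references, 3.38, 15.2 and 11.5 in Hoxa5tdTomato, 1.605, 10.96 and 1.41 in the tdT references and 6.94, 9.67 and 0.702 in the driven group, with wide overlap. Olig1, a lineage transcription factor, was at 8.08, 22.03 and 6.88, 17.3, 9.83 and 9.06, 2.85, 7.06 and 2.79 and 7.87, 8.18 and 1.91 CPM in that order, highest in creErt2 reference 2. Olig2, its neighbour on chromosome 16 and the factor that sets the lineage, was at 1.78, 1.42 and 1.902, 6.67, 4.71 and 0.6404, 0.2496, 1.49 and 2.61 and 0.233, 0.5396 and 0 CPM. Olig1 and Olig2 were both highest, among Hoxa5tdTomato, in replicate 1, and in all 3 lay above the driven group, for Olig2 by 0.640 against 0.540 CPM. Olig2 had the largest fitted change of the class between Hoxa5tdTomato and the driven group, 3.92 ± 1.36 (edgeR adjusted p = 0.104), and against all references in the driven group, -2.57 ± 1.21 (adjusted p = 0.296). Sox10, which acts through the whole lineage, was at 4.09, 1.599 and 0.181, 2.31, 1.95 and 0.0915, 1.28, 1.04 and 0.386 and 1.07, 1.35 and 0 CPM. Gpr17, a receptor of cells between precursor and oligodendrocyte, was at 0.178, 6.31 and 3.53, 9.96, 10.1 and 6.22, 0.178, 0.996 and 1.89 and 0.326, 2.11 and 0 CPM. Its largest fitted change was 3.41 ± 1.42 in Hoxa5tdTomato against the driven group (adjusted p = 0.167). For both genes replicate 3 was the lowest of the Hoxa5tdTomato libraries, and for Sox10 the ranges of all 4 groups overlapped.

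The myelin genes carried most of the class. Mbp, myelin basic protein, made up 40.4% of the summed CPM of the class, Cnp 14.4% and Ugt8a 12.2%, and per length Mbp (5.27 RPKM), Cnp (4.70) and Olig1 (3.99) led. Which cells the reads of these genes came from was not tested. Mbp stood at 24.9, 39.1 and 32.96 CPM in the creErt2 references, 41.6, 47.5 and 36.4 in Hoxa5tdTomato, 22.3, 23.1 and 29.1 in the tdT references and 50.2, 41.96 and 35.7 in the driven group. All driven libraries lay above the tdT references, with 35.7 against 29.1 CPM at the nearest. The change against all references was 0.55 ± 0.25 in Hoxa5tdTomato (edgeR adjusted p = 0.305) and 0.58 ± 0.24 in the driven group (adjusted p = 0.240), and 0.78 ± 0.27 within the driven set (adjusted p = 0.226). Cnp, a phosphodiesterase of myelinating cells, was at 9.68, 14.4 and 4.62, 24.5, 12.1 and 12.1, 19.9, 7.74 and 10.1 and 14.3, 6.296 and 15.6 CPM. Mog, a protein of the outer myelin face, was at 2.31, 4.62 and 3.98, 4.36, 3.91 and 3.66, 3.07, 3.804 and 5.06 and 7.31, 1.799 and 5.07 CPM, with overlap between all groups. Ugt8a, which makes the galactolipids of myelin, ranged from 4.17 to 19.2 CPM over the 12 libraries. Mag, of the inner myelin face, had 18 reads in Hoxa5tdTomato (14 of them in replicate 1) and 0 in the creErt2 references, a level at least 5.44-fold higher, or 1.74-fold without replicate 1. Over the 10 tested genes the median change against all references was 0.63 in Hoxa5tdTomato, with 10 above 0, and -0.13 in the driven group, with 5 above 0.

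The microglia members, taken as a sum, were concentrated in 1 library. Hoxa5tdTomato replicate 1 held 73.6 CPM of the 13 genes, against 9.49 and 14.0 CPM in the other 2 of its group and 0.321 to 16.4 CPM in the other 9 libraries, and it made up 47.6% of the sum over all 12. Of the 12 markers with any read 9 were highest there, among them Tmem119, C1qa and Tyrobp, which were not tested. Of all tested genes 7.78% were highest there. Trem2 was highest in tdT reference 2, where 5.88% of all tested genes were. Aif1 was highest in Hoxa5tdTomato replicate 3 and Mrc1 in replicate 2. Over all 23079 genes, reads were found for 16290 in Hoxa5tdTomato replicate 1 and for 13074 to 16178 in the others. Of the 13 markers, reads were found for 12 in Hoxa5tdTomato replicate 1, 10 in tdT reference 2 and 8 in creErt2 reference 2. There were 7 in Hoxa5tdTomato replicate 2 and in driven replicate 2, 6 in Hoxa5tdTomato replicate 3, and 1 to 4 in the others. After all libraries were thinned to 9973484 counts, the numbers were 12, 9, 8, 7, 7, 6 and 1 to 4. The mean over Hoxa5tdTomato was 5.14 times that of the creErt2 references, and 1.86 times without replicate 1. The same step changed the ratio of the pericyte and mural genes from 9.67 to 10.98, of the oligodendrocyte lineage genes from 1.62 to 1.52 and of the astrocyte genes from 1.29 to 1.17. Hoxa5tdTomato replicate 1 also had the highest sum of the astrocyte (1720 CPM) and oligodendrocyte lineage members (138 CPM). A list of 27 further microglia and macrophage genes was not concentrated there. It summed to 195 CPM in that library (11.5% of the sum over all 12) and to 216 CPM in driven replicate 3. Reads were found for 23 of these 27 genes in Hoxa5tdTomato replicate 1 and for 8 to 20 in the others.

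The genes that define microglia showed the concentration in Hoxa5tdTomato replicate 1 most plainly. Cx3cr1, the fractalkine receptor, was at 0, 0.977 and 0.906 CPM in the creErt2 references, 10.8, 0.0673 and 0 in Hoxa5tdTomato, 0.2496, 3.85 and 0 in the tdT references and 0, 0.675 and 0 in the driven group. P2ry12, the purine receptor of resting microglia, was at 0, 1.51 and 0, 14.8, 0.135 and 0.0915, 0, 1.81 and 0 and 0, 1.304 and 0 CPM in that order. Csf1r, the receptor on which their survival depends, was at 0.355, 0.7996 and 0.634, 13.9, 0.202 and 1.01, 0, 2.63 and 6.26 and 0, 2.79 and 0 CPM. All 3 were above 10 CPM in Hoxa5tdTomato replicate 1 and at most 1.01 CPM in the other 2 libraries of its group. Among the references, tdT reference 2 was the highest for Cx3cr1 and P2ry12 and tdT reference 3 for Csf1r, which shares 15.1% of its exon bases with Hmgxb3 on the opposite strand. Tmem119, which sets microglia apart from other macrophages, had 37 reads in Hoxa5tdTomato replicate 1 and 1 each in Hoxa5tdTomato replicate 2 and creErt2 reference 2. With 0 in the driven group it was at least 21.8-fold higher in Hoxa5tdTomato, a bound that rests on that 1 library.

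The 3 chains of C1q, which starts the classical complement pathway, were highest in the same library. C1qa had 26 reads in Hoxa5tdTomato replicate 1, 5 in driven replicate 2 and 1 in creErt2 reference 1. C1qb stood at 0, 0.7996 and 0, 4.27, 0 and 0.0915, 0, 1.54 and 0 and 0.0466, 0 and 0 CPM, and C1qc at 0, 0 and 0, 5.43, 0 and 1.46, 0, 3.12 and 0 and 0, 1.08 and 0 CPM, in the order of groups above. For each chain that was Hoxa5tdTomato replicate 1. With no read in the creErt2 references, C1qc was at least 23.3-fold higher in Hoxa5tdTomato and at least 10.5-fold higher in the tdT references. Of its 77 reads in Hoxa5tdTomato 61 were in replicate 1, and without it the bound was 6.94-fold. All 69 reads of the tdT references were in reference 2, without which there is no fold.

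**Figure D5:**
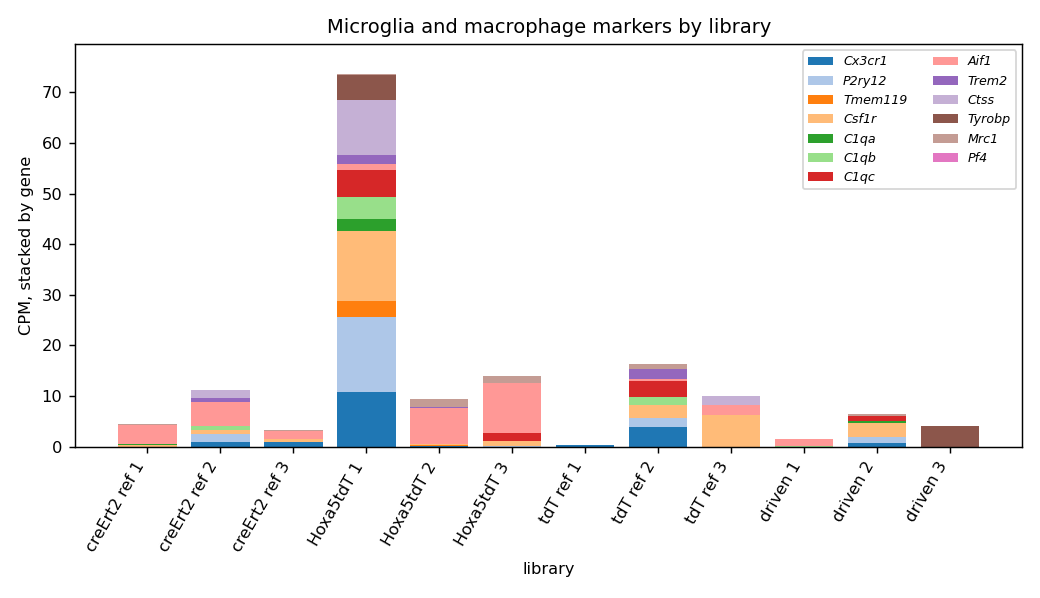
CPM of the 13 microglia and macrophage markers, stacked by gene (colours), in each library (horizontal axis). Hoxa5tdTomato replicate 1 reaches 73.6 CPM with many genes, Aif1 makes up most of the bars of Hoxa5tdTomato replicates 2 and 3, and Tyrobp alone makes up that of driven replicate 3.

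Sequences before C1qb, C1qc, Ctss and Trem2 are shown because PU.1, the factor that sets the macrophage lineage, binds the box GAGGAA, given in capitals. On the other strand the box reads TTCCTC. They are RefSeq stretches of GRCm38.p6, 5′ to 3′ on the strand of the gene, free of annotated exon bases: chr4:136886201-136886450 (C1qb, minus strand), chr4:136893066-136893164 (C1qc, minus strand), chr3:95526536-95526785 (Ctss, plus strand) and chr17:48346151-48346400 (Trem2, plus strand).
C1qb: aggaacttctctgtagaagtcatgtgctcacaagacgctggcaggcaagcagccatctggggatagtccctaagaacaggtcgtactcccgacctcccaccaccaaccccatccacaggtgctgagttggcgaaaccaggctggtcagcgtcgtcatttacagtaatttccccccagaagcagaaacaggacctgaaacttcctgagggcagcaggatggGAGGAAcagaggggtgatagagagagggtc
C1qc: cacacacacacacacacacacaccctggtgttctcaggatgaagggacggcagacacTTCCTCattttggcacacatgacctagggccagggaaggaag
Ctss: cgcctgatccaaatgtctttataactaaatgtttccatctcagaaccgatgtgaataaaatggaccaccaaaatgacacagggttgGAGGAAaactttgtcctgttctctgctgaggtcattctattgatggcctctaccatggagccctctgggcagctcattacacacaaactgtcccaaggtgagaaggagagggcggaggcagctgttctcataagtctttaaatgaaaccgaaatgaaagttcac
Trem2: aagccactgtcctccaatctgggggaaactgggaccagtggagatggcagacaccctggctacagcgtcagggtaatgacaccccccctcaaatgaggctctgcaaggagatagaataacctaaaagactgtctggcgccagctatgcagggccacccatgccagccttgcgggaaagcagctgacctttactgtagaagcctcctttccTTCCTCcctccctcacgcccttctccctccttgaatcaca

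All 4 held 1 box. They are only part of the 9 promoters of microglia members, and those without a box are not printed. The box stood in 7 of the 9, in 5 of 17 promoters of astrocyte members and in 3 of 10 of oligodendrocyte lineage members. Of all 32851 promoters 23.3% held it.

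Of the remaining microglia markers with reads, Ctss and Tyrobp were highest in Hoxa5tdTomato replicate 1, whereas Trem2, Aif1 and Mrc1 were not. Ctss, a lysosomal protease, stood at 0, 1.51 and 0 CPM in the creErt2 references, 10.7, 0 and 0 in Hoxa5tdTomato, 0, 0.0453 and 1.67 in the tdT references and at 0 in the driven group, where it was at least 11.3-fold lower than in all references. Trem2, a lipid receptor of microglia, was at 0, 0.7996 and 0, 1.78, 0.269 and 0 and 0, 1.86 and 0 CPM and also at 0 in the driven group, at least 9.91-fold lower than in all references, and was highest in tdT reference 2. The reads of Ctss in the references came from creErt2 reference 2 and tdT references 2 and 3, and those of Trem2 from creErt2 reference 2 and tdT reference 2. Without tdT reference 3 the bound for Ctss was 4.56-fold, and without tdT reference 2 that for Trem2 was 2.25-fold. Aif1, the calcium binding protein Iba1 and the marker of highest level per length in the class (3.02 RPKM), was at 3.91, 4.71 and 1.54, 1.25, 7.14 and 9.88, 0.0713, 0.498 and 2.01 and 1.44, 0 and 0 CPM, lower in Hoxa5tdTomato replicate 1 than in replicates 2 and 3. Tyrobp, the adaptor through which Trem2 signals, was at 4.98 CPM in Hoxa5tdTomato replicate 1 (56 reads) and 4.16 CPM in driven replicate 3 (83 reads). In driven replicate 3 all other 12 microglia markers were at 0. Mrc1, a mannose receptor of macrophages along vessels, was at 0.0888, 0 and 0.181, 0.178, 1.62 and 1.46, 0, 0.996 and 0 and 0, 0.315 and 0 CPM, highest in Hoxa5tdTomato replicates 2 and 3. Of the 9 tested microglia genes 0 were called in any of the 7 comparisons. Per comparison 0 to 4 had an unadjusted p under 0.05, beside 1181 to 3258 of the 14732 tested genes. DESeq2 called Ctss in 2 comparisons that involve the driven group. In comparisons of the driven group with another group it called 3.89% to 10.2% of all genes.

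Groups that did not overlap were counted as a description. Hoxa5tdTomato lay above all 6 references for 3 of the 34 tested members (Ptprz1, Slc4a4 and Cspg4), where 7.15% of all genes did, and below them for 0, where 6.93% did. The driven group lay above all references for 1 (Sox9, 3.11% of all genes) and below for 1 (Hes5, 3.27%). Hoxa5tdTomato lay above the driven group for 9 (Aldh1l1, Fabp7, Aldoc, Slc4a4, Hes5, Olig1, Olig2, Cspg4 and Gpr17), where 14.7% of all genes did, and below it for 1 (Sox9, 12.9%). Within the sets Hoxa5tdTomato lay above the creErt2 references for 5 (12.7% of all genes) and below for 1 (12.7%), and the driven group above the tdT references for 3 (6.01%) and below for 1 (6.46%). The creErt2 references lay above the tdT references for 3 (Gja1, Fabp7 and Aldoc, 12.6%) and below for 2 (Id4 and Tnc, 12%).

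Further genes of the same cell types, from lists that hold none of the 41, were counted in the same fits. Of 27 tested astrocyte and radial glia genes, 1 rose in Hoxa5tdTomato against all references and 0 fell, where 1.73% of all genes were called. The 1 was Cst3, the protease inhibitor cystatin C, at 1.18 ± 0.23 (edgeR adjusted p = 0.0176). Of 16 further oligodendrocyte lineage genes 0 rose and 1 fell: Vcan, the matrix proteoglycan versican, fell by 1.10 ± 0.18 (adjusted p = 0.00493), and by 0.89 ± 0.16 within the set (adjusted p = 0.0250). Of 13 further microglia and macrophage genes 0 rose and 0 fell. In the driven group 0 of 27, 0 of 16 and 0 of 13 were called, beside 1.84% of all genes. At an unadjusted p under 0.05 there were 6, 3 and 4, beside 2456 of the 14732 tested genes. Between the references F13a1, a coagulation factor of macrophages, was higher in the creErt2 libraries by 4.01 ± 0.88 (adjusted p = 0.0360). Summed CPM in Hoxa5tdTomato was 1.52, 0.611 and 0.933 times that in the creErt2 references for the 3 further lists. For the members these ratios were 1.29, 1.62 and 5.14. Even so, 13 of the 16 further oligodendrocyte lineage genes had a fitted change above 0 in that comparison (median 0.51), beside 7293 of the 14732 tested genes.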

How the data were processed

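RNA of sorted cells, amplified by single-primer isothermal amplification per the labels' protocols, was measured in 12 libraries. The authors deposited whole-number read counts per gene with the gene length in bases, per the file header, on mm10, converted with bcl2fastq 1.8.4, per the submitters' processing notes. No source used here gives the aligner, counter, annotation or strand setting. Genes with enough reads (filterByExpr, minimum count of 10) were tested with edgeR 4.0.16 (R 4.3.3) by the quasi-likelihood test with TMM scaling and Benjamini-Hochberg adjustment over 14732 genes, in a fit of the 3 labelled groups and a fit of the 4 column-name groups. CPM used TMM-scaled totals and no prior count. The tests were tried on simulated data. Alternatives were other scalings and filters, thinning to 9973484 counts, each library left out, only the groups compared, the mean of both reference sets (added after seeing the data), a replicate block and DESeq2 1.42.0. Values in full are given for members called in any comparison, the 3 of highest RPKM per class, defining markers listed by name, and the member of largest fitted change per class and comparison. Members and lists were chosen with earlier results of these data known. Exons of 14 of the 41 members overlap another gene's, so their reads may be split. Promoters and gene positions are from RefSeq GRCm38.p6.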

Additional observations from a re-analysis of the deposited data

Results flagged for a closer look

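Within the 6 references, a library was taken as apart where its gap to the next was larger than Dixon's 95% critical value for 6 samples allows. Chance alone gives this in about 1 in 20 groups of normally distributed values. The CPM values were not put on a log scale and some are 0, so that rate may not hold here. How many of all genes met the rule in each library was not counted. The numbers below therefore do not show whether a library stands apart for these markers more than for other genes. In tdT reference 2 the rule held for 6 markers: Aqp4 at 62.5 CPM (next 19.7), Tnc at 82.5 (30.2), Pdgfra at 11 (4.07), Cx3cr1 at 3.85 (0.977), C1qc at 3.12 (0) and Mrc1 at 0.996 (0.181). In creErt2 reference 2 it held for Hes5 at 2.67 CPM (next 1.77) and Olig1 at 22 CPM (8.08), and in creErt2 reference 1 for Sox10 at 4.09 CPM (1.60). Members at or under 3 counts in every reference were not examined. One change differed between the Hoxa5 groups: against the driven group, Aldoc was higher in Hoxa5tdTomato by 2.24 on the log2 scale (edgeR adjusted p = 0.0428), with all 3 libraries above all 3, and the references of the same sets differed in the same direction.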

How the results depend on the processing

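Of the counts of called members under the alternatives, 96 stayed within 1.5 times the count given and 44 did not, and of the other values 727 kept their direction and side of the threshold, 36 newly passed, 23 no longer passed and 3 reversed. The causes were not tested. With 1 library left out, called members ranged from 0 to 3 in Hoxa5tdTomato and 0 to 3 in the driven group against all references, 0 to 4 between these groups, 0 to 2 and 0 to 1 within the sets, 0 to 3 between the references and 0 to 0 for the difference. In that order, the share of all genes called ran from 0.226% to 4.86%, 1.27% to 3.84%, 0% to 7.73%, 0.123% to 2.43%, 0.363% to 2.43%, 0.268% to 5.23% and 0% to 0.02%. Where an arm then had 2 libraries, the spread was that of all groups in the fit. Without a filter the driven group had 2 against all references (1.76% of all genes) and 1 within the set (1.01%), and Hoxa5tdTomato 1 within the set (0.635%). Thinned counts gave 2 in the driven group against all references (2.09% of all genes) and 1 in Hoxa5tdTomato within the set (0.63%). DESeq2 gave 4 in the driven group against all references, 6 between the Hoxa5 groups, 2 in Hoxa5tdTomato within the set and 2 between the references. It called 5.69%, 10.2%, 1.85% and 4.19% of all genes in that order. A fit of only the groups compared gave 0 between the Hoxa5 groups (1.02% of all genes), 4 in Hoxa5tdTomato within the set (7.19%) and 4 between the references (5.67%). This fit was not run for the difference. Against the references of the own set in place of all 6, 0 were called in either Hoxa5 group. Against the mean of both reference sets, an alternative chosen after seeing the data, 2 were called in the driven group (3.63% of all genes). Leaving out 1 library, the Ptprz1 difference between the Hoxa5 groups ran from -0.28 (without driven replicate 3) to 0.36, and the difference between its changes within the sets from -0.065 (without tdT reference 2) to 0.67, with -0.0097 without driven replicate 3. With the replicate number as a block, 1 member passed in Hoxa5tdTomato within the set (0.489% of all genes) and 0 between the references (0.339%). Fabp7 then no longer passed between the references (1.08, edgeR adjusted p = 0.0588). Same-numbered libraries deviated together at correlations of only 0.015 to 0.026 in the shallower set and -0.028 to 0.049 in the deeper set, so the numbers were not taken to pair samples. The fit of 3 groups had no block because the reference columns carry numbers that no label ties to theirs. At 3 counts the floor of a library was 0.107 to 0.274 CPM, and microglia markers near it are not resolved.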

Other observations

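Genes of vessel cells, outside the set of 41, lay higher in Hoxa5tdTomato than in the references. Against all references the median log2 fold change was 3.28 over 13 tested endothelial genes and 3.46 over 10 tested pericyte and mural genes, beside 0.54 over the astrocyte and 0.63 over the oligodendrocyte lineage markers. Slc2a1, the glucose transporter of brain endothelium, rose by 3.07 ± 0.44 (edgeR adjusted p = 0.00184). Of the endothelial genes 2 of 13 passed and of the pericyte and mural genes 3 of 10, beside 1.73% of all genes. At an unadjusted p under 0.05 there were 11 and 7, beside 2148 of the 14732 tested genes.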
